A study of Homo sapiens with 16 samples.

Results

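The comparison of day 30 (D30) with day 70 (D70) of cortical neural differentiation was made in control cells, and it uses 4 of the 16 RNA-seq libraries of the series. The cells were of H9, an established human embryonic stem cell line. They were turned into neural cells by dual SMAD inhibition with LDN-193189 and SB-431542, which block BMP and TGF-β signalling, and were then kept in neural media up to D70 with the solvent DMSO. The control libraries D30 replicates 1 and 2 and D70 replicates 1 and 2 were taken by their titles, and the 2 D70 libraries are called culture 1 and culture 2 here. The other 12 libraries are the controls of days 0 and 12 and the cells given 40 µM Thiamet-G (TMG), an inhibitor of the enzyme that removes O-GlcNAc from proteins, at all stages. Both replicates of a day came from the same cell line, so the spread between them is that between cultures of 1 line. Reads were counted for 57736 genes, and the totals of the 4 libraries were 10843196 and 19836878 counts on D30 and 17757289 and 12213409 on D70.

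A label doubt touches every result of the second libraries. The treatment tag of D30 control replicate 2 and of D70 control replicate 2 names TMG, against the title and the column name, and each TMG library of replicate 1 is tagged as control. The D70 replicates also stood further apart than those of the other control stages, with a biological coefficient of variation of 0.551 against 0.221 on D30, 0.236 on D12 and 0.267 on D0. On D70, 6644 genes differed at least 2-fold between the cultures, against 2309 genes between the D30 replicates. The difference between replicates 1 and 2 on D70 was shared with the TMG arm, where the same differences across genes had a correlation of 0.607 (24249 genes, which are not independent replicates). For this reason most genes below are given in both D70 cultures, and results carried by a single culture are kept apart.

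Between these days a dual SMAD culture passes from radial glia, the stem cells that line the ventricle, to the neurons they produce. Radial glia first divide at the ventricle and later give outer radial glia, marked by HOPX, and intermediate progenitors, marked by EOMES. The earliest cortical neurons are deep-layer neurons, marked by TBR1, and the glia follow the neurons. The same protocol can also give eye, choroid plexus, neural crest and surface ectoderm cells and the bulk RNA of a culture sums all of them. In such data, fewer cells of a type and less RNA per cell cannot be told apart.

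The edgeR quasi-likelihood test was run on 24249 genes, and 93 of them (0.384%) had an adjusted p of at most 0.05 between D30 and D70 control cells. On D70, 74 genes (0.305%) were higher and 19 genes (0.0784%) were lower. At an unadjusted p under 0.05 there were 4468 genes. Of the 93 genes, 87 code for proteins and 2 are lncRNAs. The number rests on both D30 libraries. Without D30 replicate 1 or without D30 replicate 2 no gene passed, with 2283 and 3602 genes at an unadjusted p under 0.05 and lowest adjusted p-values of 0.132 and 0.0557 by edgeR. All 93 genes kept their direction in these fits, in which the lone D30 library is taken to vary like the other groups. DESeq2 called 1082 genes higher and 635 lower on the same 16 libraries and retained 92 of the 93. With edgeR on the 4 control libraries alone, 1 gene passed and 0 of the 93 stayed called. With a block by replicate number on those 4 libraries 4 of the 93 stayed called. Groups by the treatment tag kept 53 of the 93 but called 2266 genes in all. Which labels are right was not tested.

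A gene was said to agree when both D70 cultures lay at least 2-fold from the mean of the D30 libraries, in 1 direction and beyond both of them, on log2 CPM (counts of a gene per 1000000 counts of its library, with a prior count of 2). Both cultures were higher for 1379 genes (5.69% of the genes tested) and both were lower for 949 (3.91%). In 6528 genes a single culture met this rule. Culture 1 alone was higher for 1502 genes (6.19%) and lower for 1484 (6.12%), and culture 2 alone was higher for 2130 (8.78%) and lower for 1412 (5.82%). In 524 genes (2.16%) the cultures moved past the threshold in opposite directions, culture 1 up and culture 2 down in 326 of them. The remaining 14869 genes (61.3%) had neither culture past it. These classes are descriptions with no test. At the edge of the rule, 198 of the genes higher in both cultures had a smaller difference below 1.1, and 257 genes outside it had one of at least 0.9. Across all genes, the differences of the 2 cultures from D30 had a correlation of 0.38, and both are taken from the same D30 mean.

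**Figure D1:**
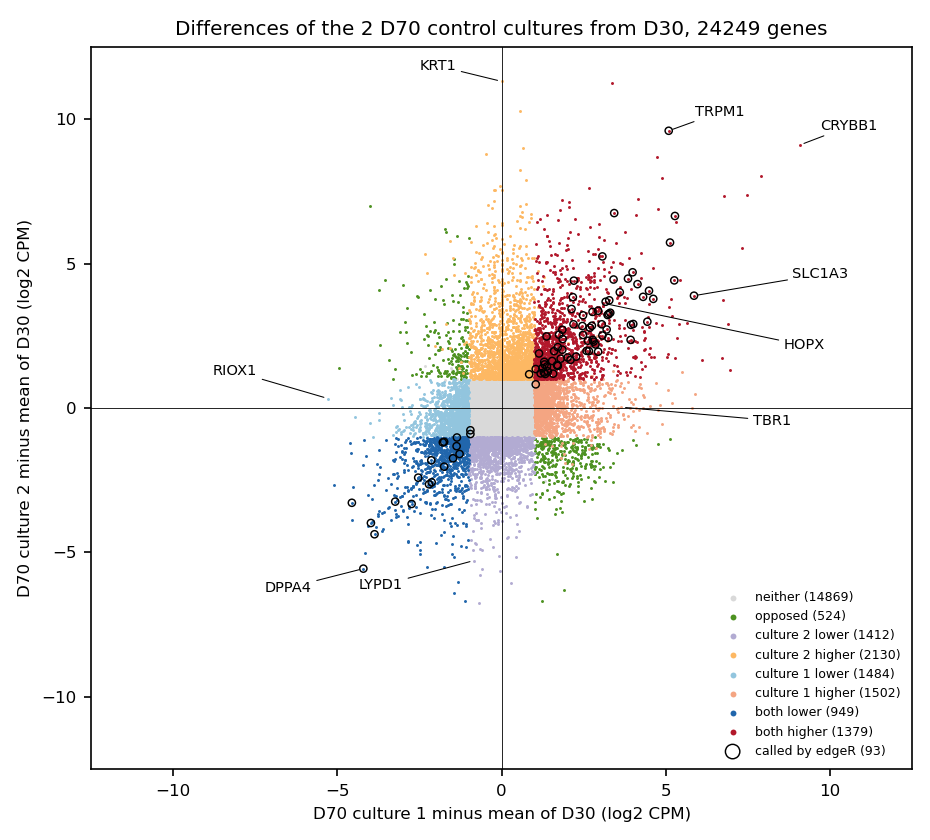
Difference of D70 culture 1 (x axis) and D70 culture 2 (y axis) from the mean of the 2 D30 control libraries in log2 CPM, with 1 point for each of 24249 genes, coloured by class, and a ring around the 93 genes called by edgeR. Most ringed genes lie on the upper right or lower left, where the cultures agree, while KRT1 and LYPD1 are set apart by culture 2 and TBR1 and RIOX1 by culture 1.

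Among the 93 genes called, 72 were higher and 17 lower in both cultures, 89 in all. The other 4 were small differences. Of these, PPM1L, with a log2 fold change of 1.01, passed the 2-fold rule in culture 2 alone, and DPH7 and MSTO1, at -0.93 and -0.87, in neither. In all 4, each culture still differed from D30 in the direction of the call.

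HOPX (ENSG00000171476, chromosome 4 of GRCh37 from 57514155 to 57548043), a homeodomain gene of outer radial glia, was at 0.188 and 0.351 CPM on D30 and at 3.21 and 4.75 CPM on D70. The D30 values stand for 2 and 7 counts. Both D70 cultures were above both D30 libraries, with a log2 fold change of 3.78 (standard error 1.34, n = 2 and 2) that did not pass (adjusted p = 0.192 by edgeR). DESeq2 called it, with adjusted p-values of 0.0484 on the 16 libraries and 0.00289 on the 4 control libraries. TBR1 (ENSG00000136535, chromosome 2 from 162272808 to 162282381), a T-box factor of deep-layer neurons, was at 6.01 and 2.36 CPM on D30 and at 49.0 and 3.86 CPM on D70. Its difference rests on culture 1, since culture 2 lay within the range of the D30 libraries. The log2 fold change was 2.68 (standard error 1.53, adjusted p = 0.375 by edgeR) and became -0.10 without culture 1. The 2 markers of D70 therefore differed in kind, HOPX being higher in both cultures and TBR1 in culture 1 only.

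EOMES, a T-box factor of intermediate progenitors, was at 1.88 and 0.703 CPM on D30 and at 10.7 and 2.74 CPM on D70, higher in both cultures but further in culture 1. FEZF2, a zinc-finger factor of subcerebral projection neurons, was at 45.8 and 83.8 CPM on D30 and at 20.8 and 17.9 CPM on D70, lower in both. EMX2, a homeobox gene of the dorsal telencephalon, had 50.5 and 95.5 CPM on D30, 60.2 CPM in culture 1 and 15.9 CPM in culture 2. CDH2, the N-cadherin of neuroepithelial junctions, had 797 and 553 CPM on D30, 606 CPM in culture 1 and 141 CPM in culture 2. Both genes were thus lower in culture 2 alone. OTX2, with 130 and 194 CPM on D30 and 184 and 122 CPM on D70, and POU3F3, with 21.5 and 31.6 CPM and then 29.2 and 13.8 CPM, were past the rule in neither culture. None of these 6 genes passed by edgeR, and the lowest adjusted p among them was 0.379.

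The 12 leading genes called higher in both cultures code for proteins of several kinds. IGF1, the insulin-like growth factor, rose from 0 and 0.301 CPM on D30 to 9.19 and 24.0 CPM on D70 (adjusted p = 0.0318 by edgeR), and its D30 values stand for 0 and 6 counts. NPNT, nephronectin of the basement membrane, rose from 0.658 and 0.251 CPM to 19.1 and 29.1 CPM. CYP1B1, a cytochrome P450 of retinoid and steroid metabolism, rose from 7.24 and 8.68 CPM to 308 and 172 CPM, a log2 fold change of 4.91 (standard error 0.46, adjusted p = 0.00542 by edgeR). The smallest adjusted p was shared by CYP1B1 and CRISPLD2, a secreted cysteine-rich protein, which rose from 3.67 and 3.66 CPM to 66.7 and 74.2 CPM. In each of these genes every D70 value lay above every D30 value, and the D70 cultures were closer to each other than to D30.

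SLC1A3 (ENSG00000079215, chromosome 5 from 36596690 to 36688436) is the glutamate transporter GLAST of radial glia and astrocytes. It rose from 3.48 and 3.66 CPM to 215 and 54.6 CPM (log2 fold change 5.24, standard error 0.80, adjusted p = 0.0279 by edgeR). Culture 1 was the higher, and both cultures were above both D30 libraries. The ventricular radial glia list that holds SLC1A3 had a median log2 fold change of -0.42. Of its 17 members tested, 6 were lower in culture 2 alone (5.82% of all genes). CD44, a hyaluronan receptor found on astrocyte precursors and on stromal cells, rose from 3.48 and 4.87 CPM to 67.4 and 111 CPM (log2 fold change 4.40, adjusted p = 0.0272 by edgeR). AQP1, a water channel of choroid plexus, rose from 9.40 and 7.03 CPM to 185 and 138 CPM. MBP, whose gene makes myelin basic protein and the golli proteins, rose from 1.32 and 2.46 CPM to 18.5 and 18.4 CPM (log2 fold change 3.26, standard error 0.35, adjusted p = 0.0114 by edgeR). Of 8 oligodendrocyte lineage genes tested, MBP was called higher (0.305% of all genes), 2 were higher in both cultures (5.69%), 2 were higher in culture 2 alone (8.78%) and 2 were lower in culture 1 alone (6.12%). The oligodendrocyte markers OLIG2, NKX2-2 and MAG were at or near 0 in all 4 libraries and were not tested.

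TRPM1, a channel of melanocytes and of retinal cells, rose from 0 and 0.201 CPM to 7.01 and 163 CPM, and its size came mainly from culture 2. ABCA4, the retinoid transporter of photoreceptors that is also found in choroid plexus, rose from 5.92 and 6.77 CPM to 128 and 93.2 CPM. GALNT14, an enzyme that starts O-linked glycans in the Golgi, rose from 0.940 and 0.953 CPM to 26.5 and 14.7 CPM. S100A10, the annexin A2 partner, rose from 3.2 and 5.27 CPM to 51.4 and 68.0 CPM. Apart from TRPM1, the D70 cultures of the 12 leading genes differed from each other by less than 4-fold, against fitted differences of 13.9-fold or more between the days.

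**Figure D2:**
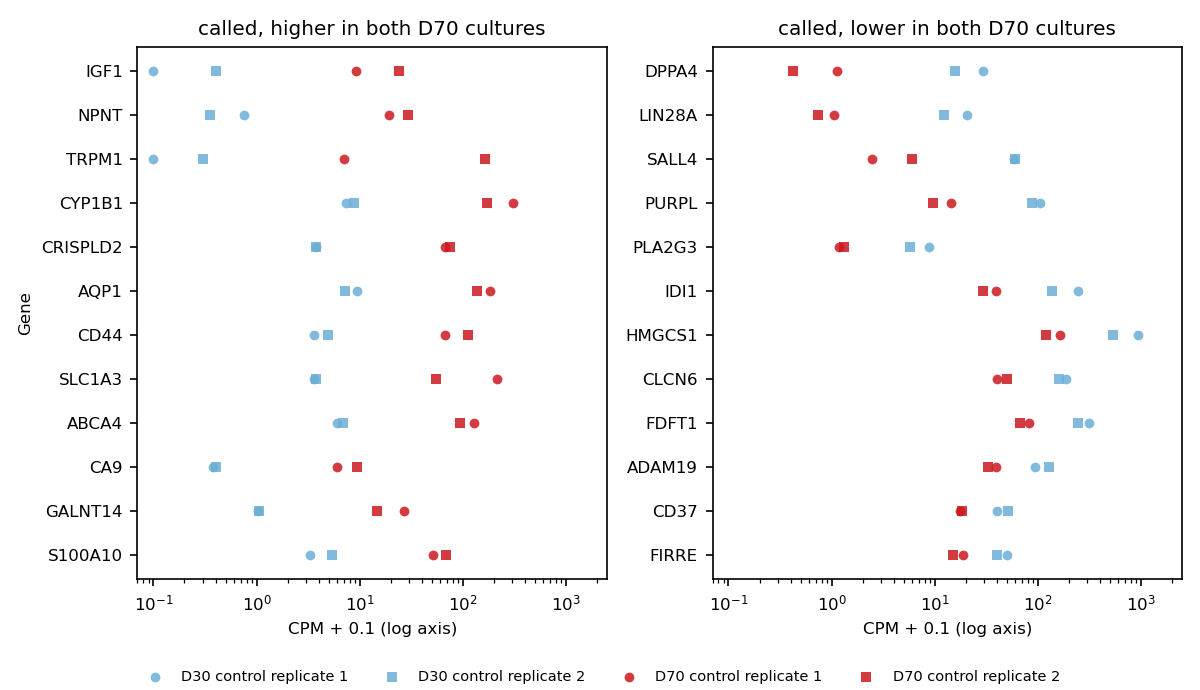
CPM plus 0.1 on a log axis in the 2 D30 (blue) and 2 D70 (red) control libraries, with circles for replicate 1 and squares for replicate 2, for the 12 genes called by edgeR with the largest agreed difference in each direction. In each gene the D30 and D70 libraries do not overlap, and the cultures of D70 are furthest apart in TRPM1.

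Among the called genes with a symbol that fell in both cultures, the 3 with the largest fold are known from undifferentiated stem cells. DPPA4 and SALL4 are in the list of stem cell markers, and LIN28A is in that of developmental timing. DPPA4 (ENSG00000121570, chromosome 3 from 109044991 to 109056393), a chromatin-bound protein of pluripotent cells, fell from 29.4 and 15.5 CPM on D30 to 1.03 and 0.322 CPM on D70 (log2 fold change -4.99, standard error 0.54, adjusted p = 0.0114 by edgeR). LIN28A (ENSG00000131914, chromosome 1 from 26737308 to 26756219), which binds let-7 precursors and holds cells in an early state, fell from 20.6 and 12.2 CPM to 0.964 and 0.644 CPM (log2 fold change -4.32, standard error 0.63, adjusted p = 0.0272 by edgeR). SALL4, a zinc-finger factor of pluripotent cells, fell from 58.7 and 59.3 CPM to 2.38 and 5.96 CPM (log2 fold change -3.83, adjusted p = 0.0252 by edgeR). D30 and D70 libraries did not overlap in any of the 3 genes, and both cultures were lower on D70. Of the 11 stem cell markers tested, 2 were called lower against 0.0784% of all genes and 0 higher, and 4 were lower in both cultures against 3.91%. A further 4 rested on a single culture, against 6528 of 24249 genes. The median log2 fold change of the 11 markers was -0.66, against 0.072 over all genes. POU5F1 and NANOG were at most 0.483 CPM in each of the 4 libraries, and their reads can be shared with pseudogenes.

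Other genes that fell in both cultures have mixed roles. PURPL, a p53-regulated lncRNA, fell from 105 and 88.4 CPM to 14.3 and 9.50 CPM. FIRRE, an X-linked lncRNA of nuclear organisation, fell from 49.9 and 40.5 CPM to 18.5 and 14.9 CPM. CLCN6, a late endosomal chloride-proton exchanger, fell from 189 and 162 CPM to 39.7 and 49.7 CPM. PLA2G3, ADAM19 and CD37 fell by 2.62, 1.62 and 1.36 on the log2 scale, and edgeR gave them adjusted p-values of 0.0423, 0.0482 and 0.0242. These 3 genes, a secreted phospholipase, a membrane metalloprotease and a tetraspanin, also had no overlap between the days.

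In the list of developmental timing genes, 16 members were tested, of which 1 was called, LIN28A, against 0.384% of all genes. Both cultures were higher for 4 members (5.69% of all genes) and lower for 2 (3.91%). Culture 1 alone was lower for 2 members (6.12% of all genes) and culture 2 alone for 3 (5.82%). The median log2 fold change was -0.42, against 0.072 over all genes. The paralogue LIN28B went the same way, from 81.7 and 56.6 CPM on D30 to 9.32 and 2.58 CPM on D70 (log2 fold change -3.52, adjusted p = 0.0626 by edgeR). The 4 nuclear factor I genes, which act in the switch from neurogenesis to gliogenesis, were higher in both cultures without passing. NFIX was at 0.752 and 4.42 CPM on D30 and at 78.7 and 175 CPM on D70 (log2 fold change 5.54, standard error 1.23, adjusted p = 0.0719 by edgeR). NFIA was at 14.6 and 56.6 CPM and then at 291 and 107 CPM, and NFIB at 13.4 and 28.4 CPM and then at 141 and 187 CPM. NR2F2, an orphan receptor of early patterning, was lower in culture 2 alone, with 415 and 390 CPM on D30, 235 CPM in culture 1 and 67.8 CPM in culture 2.

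Genes of the response to low oxygen and of glycolysis stood higher on D70, many of them in both cultures. Under low oxygen, the factors HIF1A and EPAS1 escape hydroxylation by EGLN enzymes and bind a short element in the promoters and enhancers of such genes. Of 18 genes listed and tested, CA9, SLC2A1 and VEGFA were called higher (3 genes, against 0.305% of all genes), 9 were higher in both cultures against 5.69%, 4 were higher in culture 2 alone against 8.78%, and none was lower in either class, with a median log2 fold change of 1.63. The promoters of CA9 and of EGLN1 are printed because both genes rose and both hold the letters ACGTG, the core of the hypoxia response element, close to their start. They run from 250 bases before to 50 bases after the start and come from RefSeq on GRCh38.p14, in the direction of the gene, with the match in capitals. In CA9 the capitals are the reverse complement, CACGT, since the match is on the other strand.

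CA9, chr9:35673678-35673977, plus strand: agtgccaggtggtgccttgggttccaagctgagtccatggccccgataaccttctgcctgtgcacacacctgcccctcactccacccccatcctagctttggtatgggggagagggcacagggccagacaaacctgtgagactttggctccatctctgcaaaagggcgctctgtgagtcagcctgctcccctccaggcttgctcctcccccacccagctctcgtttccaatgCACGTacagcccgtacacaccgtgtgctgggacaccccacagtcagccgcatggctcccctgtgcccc

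EGLN1, chr1:231422238-231422537, minus strand: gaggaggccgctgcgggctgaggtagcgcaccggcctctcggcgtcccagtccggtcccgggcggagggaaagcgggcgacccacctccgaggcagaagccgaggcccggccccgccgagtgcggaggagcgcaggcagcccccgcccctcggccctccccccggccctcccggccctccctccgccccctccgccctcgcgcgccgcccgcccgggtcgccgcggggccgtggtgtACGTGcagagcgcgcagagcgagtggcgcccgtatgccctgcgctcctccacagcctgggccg

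On either strand, the 5 letters ACGTG occur in 21.4% of 35116 promoters of this length. They occur in at least 1 promoter of 12 of the 18 genes of the list, with EPAS1, EGLN1 and HILPDA added, for which a promoter was found, and several of these genes have more than 1 promoter. The promoters of SLC2A1 and EPAS1 do not hold the letters in this window. A match is a description of the sequence and says nothing of binding in these cells.

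CA9, the carbonic anhydrase IX of the cell surface, rose from 0.282 and 0.301 CPM on D30 to 5.98 and 9.34 CPM on D70 (log2 fold change 4.67, standard error 0.79, adjusted p = 0.0423 by edgeR), the D30 values standing for 3 and 6 counts. SLC2A1, the glucose transporter GLUT1, rose from 103 and 89.2 CPM to 739 and 996 CPM (log2 fold change 3.17, adjusted p = 0.0423 by edgeR). VEGFA, the vascular growth factor, rose from 54.5 and 102 CPM to 269 and 487 CPM (log2 fold change 2.27, adjusted p = 0.0272 by edgeR). Both cultures were thus well above D30, and culture 2 was the higher in each of the 3 genes. Among the glycolytic enzymes, ENO1 was at 250 and 303 CPM on D30 and at 874 and 1041 CPM on D70 (adjusted p = 0.0743 by edgeR). LDHA, which makes lactate, was at 36.5 and 47.4 CPM and then at 117 and 311 CPM (adjusted p = 0.0998 by edgeR).

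Outside the list, and named after their values were seen, 3 further genes of this response were called. EPAS1, the factor HIF-2α, rose from 7.33 and 11.7 CPM to 145 and 69.4 CPM (log2 fold change 3.48, adjusted p = 0.0272 by edgeR). EGLN1, the prolyl hydroxylase that marks the HIF proteins for decay, rose from 43.6 and 40.5 CPM to 106 and 95.7 CPM. HILPDA, a lipid droplet protein, rose from 10.6 and 10.5 CPM to 23.5 and 39.4 CPM. Not all members moved. ADM, at 15.3 and 11.5 CPM and then at 7.65 and 18.0 CPM, and P4HA1, at 359 and 218 CPM and then at 304 and 316 CPM, were past the rule in neither culture.

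Many genes of cholesterol synthesis and uptake stood lower on D70 in both cultures. The list was written after its values were seen, so its counts are a description only. Sterols are made from acetyl-CoA through mevalonate, and the factor SREBF2 drives the enzymes when sterol is low. Of 26 genes, 3 were called lower against 0.0784% of all genes, 15 were lower in both cultures against 3.91% of all genes, none was higher in both, and the median log2 fold change was -1.25. HMGCS1, the HMG-CoA synthase, fell from 946 and 534 CPM on D30 to 163 and 120 CPM on D70 (log2 fold change -2.39, standard error 0.43, adjusted p = 0.0484 by edgeR). IDI1, the isopentenyl diphosphate isomerase, fell from 245 and 138 CPM to 39.5 and 29.3 CPM (log2 fold change -2.48, adjusted p = 0.0272 by edgeR). FDFT1, the squalene synthase, fell from 313 and 243 CPM to 82.0 and 67.6 CPM (log2 fold change -1.89, standard error 0.24, adjusted p = 0.0181 by edgeR). In these genes D30 replicate 1 was the highest library and culture 2 the lowest, with no overlap between the days.

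SREBF2 itself was lower in both cultures and lay just outside the threshold of the test. It was at 450 and 469 CPM on D30 and then at 228 and 203 CPM on D70 (log2 fold change -1.09, adjusted p = 0.0505 by edgeR).

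The promoter of SREBF2 is shown as the only one among the 19 sterol genes with a promoter in the RefSeq table that holds TCACNCCAC, letters of the sterol regulatory element with N for any base, on either strand.

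SREBF2, chr22:41832855-41833154, plus strand: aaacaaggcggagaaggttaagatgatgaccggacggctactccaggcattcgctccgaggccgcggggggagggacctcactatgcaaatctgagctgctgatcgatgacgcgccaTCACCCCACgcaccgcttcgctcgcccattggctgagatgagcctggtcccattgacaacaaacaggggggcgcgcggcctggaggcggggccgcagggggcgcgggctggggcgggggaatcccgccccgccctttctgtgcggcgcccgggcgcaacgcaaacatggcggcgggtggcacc

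The match, in capitals, begins at base 118 of the 300, and 1.13% of all promoters of this length hold one. The promoters of HMGCS1, IDI1 and 16 other sterol genes do not have these letters in the window.

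**Figure D3:**
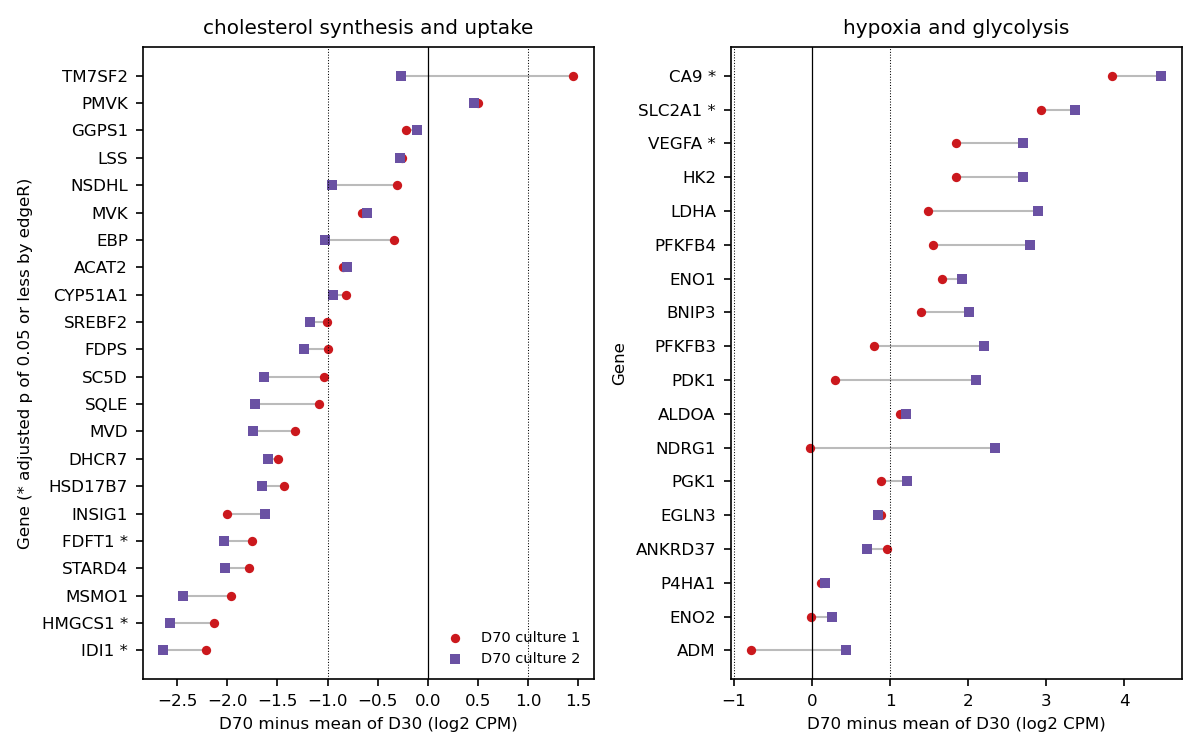
Difference of each D70 culture from the mean of D30 in log2 CPM (x axis) for the genes of cholesterol synthesis and uptake (left) and of hypoxia and glycolysis (right), with red circles for culture 1, purple squares for culture 2 and a star for genes called by edgeR. The dotted lines mark a 2-fold difference, and 13 of the 22 sterol genes drawn have both cultures below the lower line while 9 of 18 hypoxia genes have both above the upper line.

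Of 19 pan-neuronal genes tested, 7 were higher in both cultures against 5.69% of all genes, and 7 rested on a single culture. Over all genes, 6528 of 24249 rested on a single culture. By edgeR, 0 of the 19 were called higher against 0.305% of all genes, and their median log2 fold change was 1.14. INA, the neuronal intermediate filament internexin, was at 8.74 and 8.68 CPM on D30 and at 38.4 and 32.5 CPM on D70 (log2 fold change 2.02, adjusted p = 0.103 by edgeR). SYP, the synaptic vesicle protein synaptophysin, was at 3.76 and 4.62 CPM and then at 15.1 and 22.5 CPM (adjusted p = 0.134 by edgeR). MAPT, the tau protein of axons, was at 13.9 and 18.1 CPM and then at 46.4 and 50.8 CPM. DCX, doublecortin of migrating neurons, was carried by culture 1, with 93.3 and 209 CPM on D30, 513 CPM in culture 1 and 152 CPM in culture 2. MAP2, a dendritic protein, was lower in culture 2 alone, with 263 and 260 CPM on D30, 323 CPM in culture 1 and 113 CPM in culture 2.

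Of 19 genes of glutamatergic transmission, 8 were higher in both cultures (5.69% of all genes) and 6 rested on a single culture (6528 of all 24249 genes). EdgeR called 0 of them higher (0.305% of all genes), and their median log2 fold change was 1.32. GRIA2, the AMPA receptor subunit that limits calcium entry, was at 2.07 and 2.21 CPM on D30 and at 27.0 and 16.7 CPM on D70 (log2 fold change 3.35, standard error 0.85, adjusted p = 0.0963 by edgeR). GRIA1 was at 8.83 and 6.47 CPM and then at 25.3 and 24.1 CPM, and CAMK2B, a calcium-dependent kinase of synapses, at 1.97 and 2.31 CPM and then at 17.4 and 8.29 CPM. The vesicular transporter SLC17A6 was at 0.564 and 1.61 CPM and then at 4.37 and 2.33 CPM. NMDA receptor subunits rested on a single culture, GRIN1 being higher in culture 1 and GRIN2A and GRIN2B lower in culture 2.

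Deep-layer genes had 5 of 13 members higher in both cultures, against 5.69% of all genes, and 0 called higher by edgeR, against 0.305%. Their median log2 fold change was 1.39, against 0.072 over all genes. BCL11B, the CTIP2 factor of corticospinal neurons, was at 4.23 and 10.4 CPM on D30 and at 20.1 and 38.6 CPM on D70. NEUROD6, a bHLH factor of young excitatory neurons, was at 0 and 0.1 CPM and then at 8.61 and 1.21 CPM. FOXP2 was at 1.5 and 2.91 CPM and then at 5.72 and 37.5 CPM, and BHLHE22 at 0.094 and 0.602 CPM and then at 5.01 and 12.8 CPM. Culture 1 was therefore the higher for TBR1, NEUROD6 and NEUROD2, and culture 2 for BCL11B, FOXP2 and BHLHE22. Of 10 upper-layer genes, with a median log2 fold change of 0.11 and 0 called by edgeR (0.384% of all genes), 2 were higher in both cultures (5.69% of all genes), among them LHX2, a homeobox gene that is also in the radial glia list, at 3.48 and 5.72 CPM on D30 and at 11.3 and 13.8 CPM on D70. RORB, a retinoid-related receptor of layer 4 that is also a retinal gene, was carried by culture 2 alone, at 3.10 and 2.81 CPM on D30, 4.63 CPM in culture 1 and 301 CPM in culture 2.

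Among intermediate progenitor and proneural genes, 4 of 13 were higher in both cultures and 5 in culture 2 alone, against 5.69% and 8.78% of all genes, with a median log2 fold change of 1.83 and 0 called by edgeR (0.384% of all genes). HES6, a bHLH gene of differentiating progenitors, was at 5.64 and 8.98 CPM on D30 and at 28.7 and 40.1 CPM on D70 (adjusted p = 0.0671 by edgeR), and NEUROG2, a proneural factor, at 0.376 and 0.502 CPM and then at 9.77 and 2.66 CPM. NEUROD4 was at 0.282 and 1.15 CPM on D30, 1.16 CPM in culture 1 and 63.8 CPM in culture 2, and NEUROD1 at 0.470 and 2.31 CPM, 0.579 CPM and 50.7 CPM. DLL1, a Notch ligand, was lower in both cultures, at 54.9 and 50.4 CPM and then at 13.8 and 19.4 CPM. Of the 10 outer radial glia genes, HOPX and TNC, an extracellular matrix protein, were higher in both (5.69% of all genes), and edgeR called 0 (0.384% of all genes). ACSBG1, an acyl-CoA synthetase, went the other way, from 16.6 and 15.3 CPM on D30 to 2.06 and 1.05 CPM on D70 (log2 fold change -3.35, adjusted p = 0.0626 by edgeR).

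The ventricular radial glia list had 17 members tested, with a median log2 fold change of -0.42, SLC1A3 called higher (0.305% of all genes) and 6 members lower in culture 2 alone (5.82% of all genes). PAX6, the paired-box factor of cortical radial glia, was at 431 and 331 CPM on D30 and at 306 and 312 CPM on D70, in neither class. SOX2, a factor of neural stem cells, was at 124 and 157 CPM, 112 CPM in culture 1 and 50.7 CPM in culture 2, and NES, their intermediate filament nestin, at 255 and 266 CPM, 181 CPM and 105 CPM. Of 26 cell cycle genes, 10 were lower in culture 2 alone, against 5.82% of all genes, and 0 were called by edgeR, against 0.384%. TOP2A, the topoisomerase of dividing cells, was at 129 and 110 CPM on D30, 94.6 CPM in culture 1 and 44.6 CPM in culture 2, and CDK1 at 32.0 and 24.9 CPM, 31.9 CPM and 9.50 CPM. The replication helicase genes MCM2 and MCM4 were higher in both cultures, MCM4 being at 14.8 and 13.1 CPM and then at 44.9 and 54.7 CPM (adjusted p = 0.0944 by edgeR).

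Astroglial genes had 6 of 15 members higher in both cultures and 4 in culture 1 alone, against 5.69% and 6.19% of all genes, with CD44 called higher (0.305% of all genes) and a median log2 fold change of 1.17. SLC1A2, the glutamate transporter GLT-1, was at 6.2 and 7.93 CPM on D30 and at 133 and 15 CPM on D70, and S100B, a calcium-binding protein, at 0.564 and 1.00 CPM and then at 20.8 and 2.9 CPM. GFAP, the astrocyte filament, was at 0.752 and 1.1 CPM and then at 3.15 and 4.02 CPM. APOE, the main lipid carrier of glia, was lower in both cultures, at 154 and 140 CPM and then at 62.6 and 54.8 CPM. In this list culture 1 was the higher for transporters and culture 2 for CD44 and AGT.

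Marker genes of tissues other than cortex differed in how far the D70 cultures agreed. The lens list, which was written after its values were seen, had 13 of 15 tested members higher in both cultures, against 5.69% of all genes. It held 19 genes. Members near 0 on D30, such as CRYBB1, could pass the count filter only through libraries where they were higher. The share is therefore a description only. CRYBB1, a beta-crystallin, was at 0 and 0 CPM on D30 and at 72.0 and 73.2 CPM on D70 (adjusted p = 0.0743 by edgeR). CRYBA4 was at 0.094 and 0 CPM and then at 41.0 and 45.4 CPM, and CRYBA1 at 0.188 and 0.201 CPM and then at 57.7 and 54.5 CPM. CRYAA, an alpha-crystallin, was at 4.42 and 3.76 CPM and then at 674 and 195 CPM. For the 3 beta-crystallins the cultures were near each other, and edgeR called none of them. For CRYBB1 the call changed with the fit, since DESeq2 on the same 16 libraries and edgeR on the 8 control libraries gave adjusted p-values of 6.11e-20 and 0.00535. In the TMG arm CRYBB1 was at 37 and 0 CPM on D70. Reads of CRYBB2 can be shared with its pseudogene.

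Of 12 genes of the eye field and pigment epithelium, 7 were higher in both cultures and 3 in culture 2 alone, against 5.69% and 8.78% of all genes, SERPINF1 was called higher (0.305% of all genes), and the median log2 fold change was 5.32. SERPINF1, the pigment epithelium-derived factor, rose from 48.9 and 63.5 CPM to 144 and 311 CPM (log2 fold change 2.02, standard error 0.36, adjusted p = 0.0482 by edgeR). DCT, a melanin enzyme, was at 2.35 and 2.61 CPM on D30 and at 68.8 and 1077 CPM on D70, and TYRP1 at 1.97 and 0.652 CPM and then at 38.1 and 323 CPM (adjusted p = 0.0519 by edgeR). RAX, the eye field homeobox gene, was at 1.13 and 1.1 CPM and then at 7.91 and 95.9 CPM. Pigment genes were thus present in both cultures and several-fold higher in culture 2. SIX6, a retinal progenitor factor, rested on culture 2, at 0 and 0.301 CPM on D30, 0.0643 CPM in culture 1 and 29.3 CPM in culture 2. RPE65, the retinoid isomerase, was instead higher in culture 1 alone, at 63.7 CPM against 1.37 CPM in culture 2.

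Of 17 roof plate and choroid plexus genes tested, AQP1 was called higher (0.305% of all genes), 3 were higher in both cultures (5.69%), 6 were higher in culture 1 alone (6.19%) and 4 were lower in culture 2 alone (5.82%). AQP1, given above, was near equal in the cultures, and several other members were far higher in culture 1. TTR, the transthyretin that choroid plexus secretes, was at 36.5 and 173 CPM on D30, 9812 CPM in culture 1 and 198 CPM in culture 2. It counts as higher in both only because culture 2 lay just above the D30 libraries. HTR2C, a serotonin receptor of the same epithelium, was at 23.6 and 46.2 CPM, 901 CPM in culture 1 and 31.5 CPM in culture 2, and FOLR1 at 4.6 and 5.22 CPM, 80.1 CPM and 3.22 CPM. The summed CPM of the 17 roof plate and choroid plexus genes was 1281 and 1399 on D30, 12822 in culture 1, most of it TTR, and 784 in culture 2. Of 11 motile cilia genes tested, 10 were opposed, up in culture 1 and down in culture 2, against 2.16% of all genes. FOXJ1, the master regulator of motile cilia, was at 55.9 and 143 CPM on D30, 312 CPM in culture 1 and 9.58 CPM in culture 2. DNAH9, an axonemal dynein, was at 33.2 and 81.1 CPM, 549 CPM and 8.77 CPM. No cilia gene passed by edgeR, with adjusted p-values of at least 0.462. Both roof plate genes among those named for a difference downward in a single culture rested on culture 2. LMX1A, a LIM homeobox factor, was at 69.5 and 103 CPM on D30, 114 CPM in culture 1 and 2.25 CPM in culture 2, and RSPO2, a Wnt agonist, at 168 and 195 CPM, 172 CPM and 5.07 CPM.

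Of the 8 genes named for the largest differences upward in a single culture, all in culture 2, 7 are known from stratified epithelium or its cells. KRT1, a keratin of differentiating epidermis, was at 0 CPM in both D30 libraries and in culture 1 and at 338 CPM in culture 2, where it had 4195 counts. KRT4 was at 0, 0, 0.0643 and 163 CPM in the same order, KRT15 at 0.470, 0.0502, 0.386 and 172 CPM, and KRT13 at 0.188, 0.1, 0.0643 and 121 CPM. TP63, the master factor of stratified epithelia, was at 0, 0.0502, 0.129 and 37.3 CPM, and DSG1, an epidermal desmoglein, at 0, 0, 0.0643 and 39.7 CPM. SERPINB2, a serpin of keratinocytes and macrophages, was at 0, 0.251, 0.0643 and 42.3 CPM. None of the 7 genes passed by edgeR (lowest adjusted p = 0.175), while DESeq2 on the 16 libraries called KRT1 (adjusted p = 0.000224), KRT4, KRT15, DSG1 and TP63. For genes at 0 in D30 no fold is given. In the list of 21 such genes, written after its values were seen, 16 were higher in culture 2 alone, against 8.78% of all genes. Members near 0 on D30 and in culture 1, such as KRT1, could pass the count filter only through libraries where they were higher. This share is therefore a description only, and setting it beside that of all genes decides nothing. It summed to 106 and 73.9 CPM on D30, 141 CPM in culture 1 and 2450 CPM in culture 2. Reads can be shared among the near-identical keratins KRT6A, KRT14, KRT16 and KRT17.

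OGN, the matrix proteoglycan osteoglycin, was the other of these 8 genes, at 0.752 and 0.602 CPM on D30, 0.643 CPM in culture 1 and 166 CPM in culture 2. It belongs with stromal genes, of which 8 of 15 were higher in culture 2 alone (8.78% of all genes), 0 were called by edgeR (0.384% of all genes) and the median log2 fold change was 2.20. COL1A1, the main fibrillar collagen, was at 1304 and 1993 CPM on D30, 2403 CPM in culture 1 and 20367 CPM in culture 2. DCN, decorin, was at 1.03 and 10.1 CPM, 14.3 CPM and 492 CPM. The summed CPM of the 15 genes was 5983 and 9370 on D30, 9055 in culture 1 and 53094 in culture 2, and culture 1 lay within the range of the D30 libraries. The part of stromal and epithelial genes in the other results of culture 2 was not tested.

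**Figure D4:**
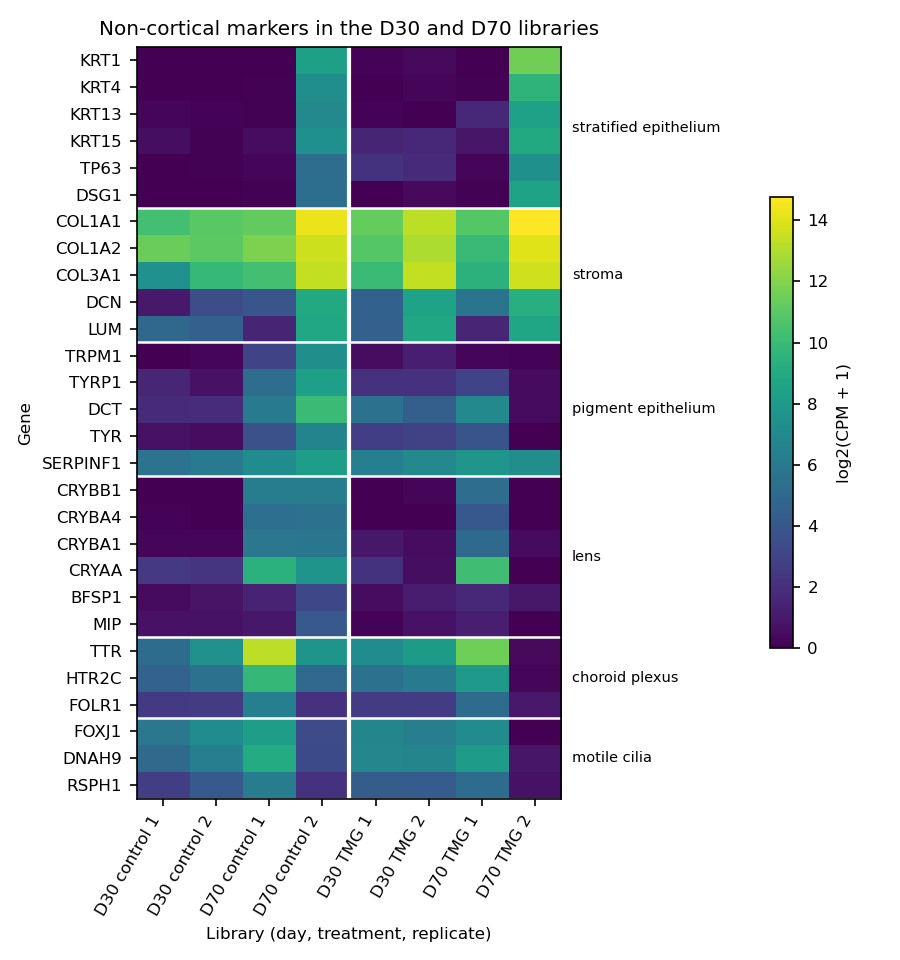
Log2(CPM + 1) of markers of tissues other than cortex (rows) in the D30 and D70 libraries of the control and TMG arms (columns, day, treatment and replicate). Keratins appear in the second D70 library of each arm, TTR and motile cilia genes are high in the first D70 libraries, and crystallins and pigment genes are present in both D70 control cultures.

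Genes lower in a single culture included SOST, a secreted Wnt antagonist, with 8.83 and 22.2 CPM on D30, 17.4 CPM in culture 1 and 0.0805 CPM in culture 2. UBD, a ubiquitin-like modifier, was at 5.36 and 7.93 CPM, 6.30 CPM and 0 CPM in the same order. MS4A6A, a membrane protein known from myeloid cells, was at 38.7 and 28.7 CPM, 21.9 CPM and 0.563 CPM, and LYPD1, a Ly6 family protein of neurons, at 107 and 159 CPM, 72.7 CPM and 3.22 CPM. These genes, like LMX1A and RSPO2, stood far lower in culture 2 than in culture 1. RIOX1, a ribosome-associated oxygenase, was the reverse, at 5.45 and 4.67 CPM on D30, 0 CPM in culture 1 and 6.36 CPM in culture 2. None of these 7 genes passed by edgeR, with adjusted p-values from 0.396 to 0.861.

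**Figure D5:**
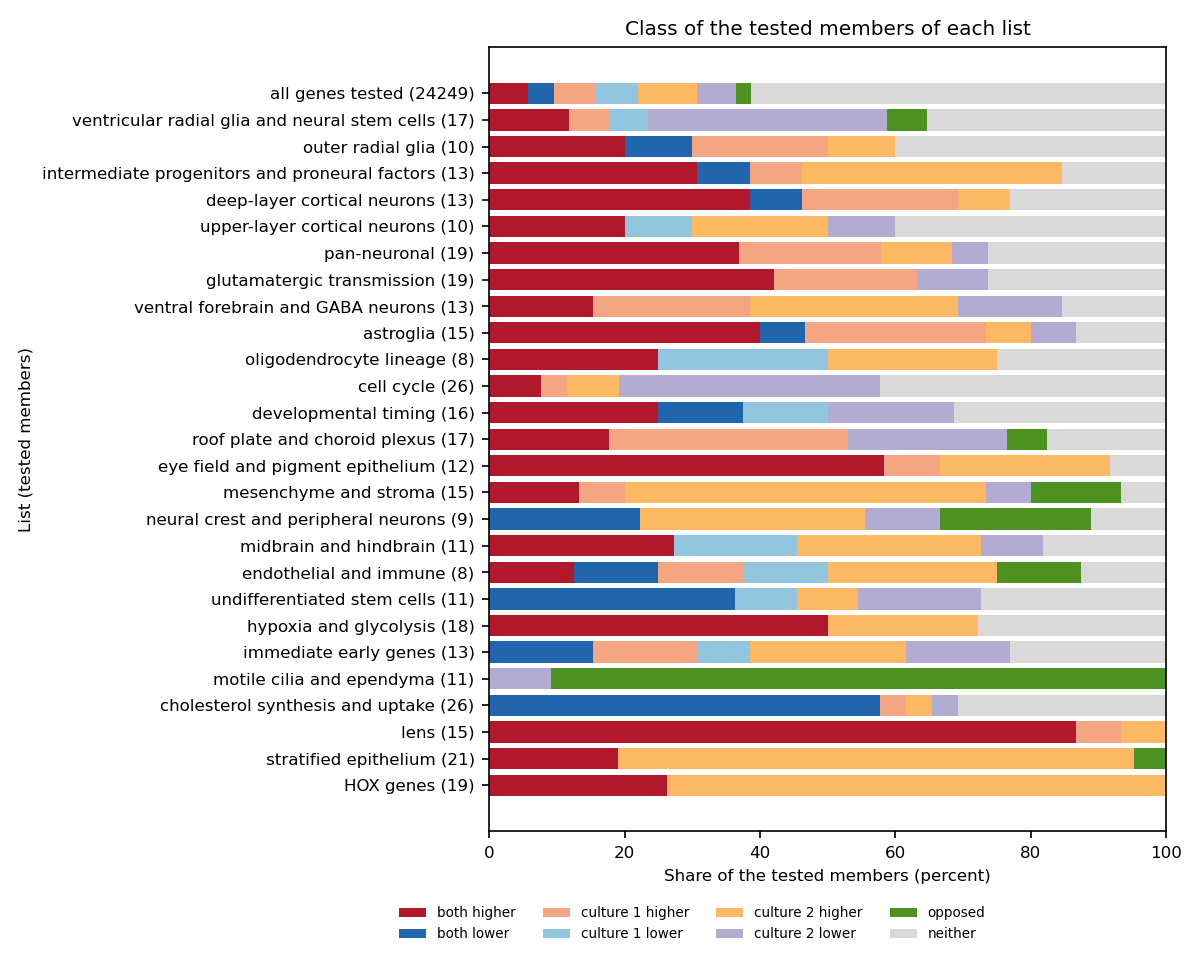
Share of the tested members of each gene list (x axis, percent) in each class of agreement between the D70 cultures, with all genes tested in the top bar and the number of tested members in brackets. Most sterol and lens genes and 9 of 18 hypoxia genes are in classes where both cultures agree, while stromal, epithelial and HOX genes are mostly higher in culture 2 alone and motile cilia genes are opposed.

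The TMG libraries of D30 and D70 are separate from the 4 control libraries and show which class of genes differed in the same way there. Over all genes, 50.6% were higher on D70 than on D30 in the TMG arm. Of the 1379 genes higher in both control cultures, 83.0% were, and of the 949 lower in both, 11.1%. The classes of a single culture leaned the same way. The share was 69.9% for genes higher in culture 1 alone and 73.1% for those higher in culture 2 alone. It was 29.9% for genes lower in culture 1 alone and 20.2% for those lower in culture 2 alone. For genes higher in both, the median differences of the 2 TMG cultures from the D30 TMG mean were 0.80 and 0.68 in log2 CPM. For genes lower in both they were -0.67 and -1.04. Genes higher in culture 2 alone had a median of 0.00 in TMG replicate 1 and 0.95 in TMG replicate 2, and genes higher in culture 1 alone 0.69 and -0.43. Opposed genes had 0.53 and -1.63. At the median, the classes that rest on a single control culture therefore had their counterpart in the TMG library of the same number. An example is KRT1, at 0 CPM in the first and 3018 CPM in the second D70 TMG library. The eye field and pigment epithelium genes did not follow. Their summed CPM was 603 in culture 1 and 2726 in culture 2, but 547 and 167 in the first and second D70 TMG libraries.

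Of the 93 genes called in control cells, 89 had the same sign in the TMG arm, but edgeR called 1 gene higher and 1 lower on D70 there (0.00825%). The difference between the 2 contrasts passed for 0 of 24249 genes, with 977 at an unadjusted p under 0.05, among them 56 of the 93 genes, which were themselves chosen on the control contrast. DPPA4 was at 23.3 and 11.4 CPM on D30 and at 0.0790 and 0.277 CPM on D70 in the TMG arm, and LIN28A at 27.1 and 5.96 CPM and then at 0.395 and 0.462 CPM. CA9 was at 0.194 and 0 CPM and then at 4.98 and 3.79 CPM. HILPDA differed little, with 9.33 and 11.5 CPM and then 9.64 and 9.99 CPM. HMGCS1 started lower, at 476 and 207 CPM, and was at 153 and 206 CPM on D70, so that its log2 fold change was -0.93 in the TMG arm against -2.39 in control cells. For TRPM1 the sign was the opposite, with 0.389 and 1.33 CPM on D30 and 0.158 and 0.0925 CPM on D70. The tests by edgeR gave adjusted p-values of at least 0.588 for the difference between arms in each of the genes named here.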

How the data were processed

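The authors depleted rRNA and made libraries with NEBNext kits, sequenced on an Illumina instrument, and whether strand was used in counting is not stated, so reads of antisense partners cannot be told apart. The deposited values are estimated counts, which the authors made with bowtie2 and RSEM v1.2.12 on hg19 with Ensembl gene models and deposited as whole numbers without normalization. Symbols were matched by gene ID in a table of gene names and in GENCODE lifted to GRCh37, which gave the positions, and 43484 of 57736 genes had a symbol. All 16 libraries were fitted in edgeR 4.0.16 (TMM, filterByExpr at a minimum count of 10 and a minimum total of 15, robust quasi-likelihood fit) with a mean for each of 8 groups and 8 residual degrees of freedom, and p-values were adjusted by Benjamini-Hochberg over 24249 genes. CPM use TMM library sizes. The filter asks for a gene in 2 libraries or more, and of the 18894 genes with a count that it removed, 1871 were higher in a single D70 culture. At these totals counting error matters mainly for genes of few counts, and elsewhere the spread between cultures limits the precision. CPM compare a gene between libraries, not genes with each other. Every standard error is the absolute log2 fold change divided by the square root of the F statistic of the edgeR test. Each has n = 2 libraries a group. The methods of the study call these libraries biological replicates. The p-values rest on a spread estimated over all 8 groups together, with a common biological coefficient of variation of 0.379. That of the D70 control cultures alone was 0.551. The p-values therefore do not measure the spread of the D30 and D70 control cultures alone.

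The named genes were HOPX, TBR1, the 6 other stage markers of the study, in each direction the 12 called genes with a symbol whose cultures agree, taken by the largest smaller difference, in each direction the 8 genes with the largest difference among those that rest on a single culture, and members of 22 lists. The members, lists and rules were chosen with earlier results of these data known, and 4 lists and 7 genes (EPAS1, EGLN1, HILPDA, CRYBB1, H19, IGF2 and MBP, the last also a list member) were added after the values were seen. Scripts were tested on simulated data. Alternatives were DESeq2 1.42.0, other libraries in the fit, RLE, no filter on low counts, a block by replicate number, grouping by the treatment tag, other thresholds and each library left out. Fits used R 4.3.3, and tables Python 3.11.15, pandas 2.3.3 and numpy 2.4.6. NEFL, PECAM1 and CCDC39 of the lists were not analysed here. Some genes that these rules take are not reported here.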

Additional observations from a re-analysis of the deposited data

How the results depend on the processing

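The number of genes called higher on D70 was 1082 with DESeq2 on 16 libraries, 724 with DESeq2 on the 4 control libraries, 1 with edgeR on the 4 control libraries, 232 with no filter (43143 genes) and 1335 with groups by the treatment tag, against 74. Lower genes were 635, 267, 0, 99 and 931, and 43 with edgeR on 8 control libraries, against 19. With 1 library left out they ranged from 0 to 169 higher and from 0 to 20 lower, 169 without D70 replicate 1, 44 and 8 without D70 replicate 2, and 0 without either D30 library. List members called higher, 8 at first, were 46, 57, 0 and 28 with DESeq2 on 16 and on 4 libraries, edgeR on 4 libraries and the tags, and 0 to 14 with a library left out. Those called lower, 3 at first, were 10, 12, 0 and 13 in that order, 5 with 8 control libraries, 5 with no filter, and 0 to 3 with a library left out. In each setting all 93 genes kept their direction. Of them 92, 86, 0, 57, 88 and 53 stayed called with DESeq2 on 16 and 4 libraries, edgeR on 4 and 8 libraries, no filter and the tags. Among the genes named, DESeq2 also called OGN (0.0154) and H19 (0.00565) on 16 libraries and FEZF2 (0.00445), KRT1 (1.09e-05), KRT13 (0.0498) and KRT15 (0.0448) on 4, values being adjusted p. RLE kept all 93 and moved the median of all genes from 0.072 to 0.061.

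Samples with the same number did not deviate together between D30 and D70 (correlation -0.073 across genes). This cannot decide whether equal numbers came from the same run of differentiation, since a shared run need not show on D30. The labels do not state it. On D70 the replicate differences were shared with TMG (0.607). The replicate block gave 135 genes higher and 49 lower on 16 libraries and 10 and 0 on 4 libraries, where 3 and 0 list members passed. With the block on 16 libraries KRT4 passed (edgeR adjusted p = 0.00709), and on 4 libraries CRYBB1 did (0.0426).

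Genes in which the cultures agree numbered 5019 at a log2 difference of 0.58 and 495 at 2, against 2328, and those of a single culture 2517 at 2, against 6528. Without a D30 library they were 2278 to 3236 and 6323 to 6986.

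Grouped by the tag, the log2 fold change turned to 0.03 for EMX2, 0.33 for OTX2, 0.11 for POU3F3, -2.76 for KRT1, -0.96 for KRT15, -3.5 for TP63, -0.82 for OGN and -3.54 for SERPINB2. This grouping takes the control libraries of replicate 2 out of the group and puts the TMG libraries of replicate 1 in, and for KRT1 both D70 libraries are then at 0, so that its value depends on the prior count. With a library left out it ranged from -0.10 to 3.52 for TBR1, -0.41 to 0.23 for OTX2, -0.94 to 0.09 for POU3F3, -1.0 to 9.75 for KRT13, -0.09 to 7.95 for OGN, -1.21 to 11.29 for SERPINB2, -7.46 to 0.11 for SOST, -9.29 to 0.33 for RIOX1 and -5.25 to 0.36 for LMX1A. The cause was not tested.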

Other observations

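Some further genes called higher in both cultures are named here after their values were seen, so they show nothing of the called genes as a whole, and the pan-neuronal and glutamatergic lists had 0 members called by edgeR. RIMS4, of the active zone, rose from 1.13 and 3.06 CPM on D30 to 19.8 and 19.6 CPM on D70 (log2 fold change 3.19, adjusted p = 0.0423 by edgeR). NPTXR, the neuronal pentraxin receptor, rose from 14.1 and 10.3 CPM to 77.0 and 47.6 CPM, and STMN3, a neuronal stathmin, from 5.73 and 9.53 CPM to 52.1 and 37 CPM. RYR2, a calcium release channel, rose from 2.26 and 1.91 CPM to 20.6 and 20.4 CPM (log2 fold change 3.30, edgeR adjusted p = 0.0129), and KCNA1, a potassium channel, from 2.16 and 1.35 CPM to 11.3 and 9.17 CPM. In these genes the D70 cultures lay within 2-fold of each other. ELN, the elastin gene, rose from 38.7 and 38.6 CPM to 131 and 225 CPM (adjusted p = 0.0484 by edgeR).

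HOX genes, which mark the hindbrain, the spinal cord and trunk tissues, were at 0 or near 0 on D30 and were mostly seen in culture 2 on D70. The list was written after its values were seen. Of 39 listed, 19 were tested, of which 14 were higher in culture 2 alone (8.78% of all genes), 5 in both (5.69%) and 0 were called by edgeR (0.384%). Members near 0 on D30 can pass the count filter only through libraries where they are higher. Setting these counts beside the shares of all genes therefore decides nothing. HOXD8 was at 0, 0 and 0 CPM in D30 and culture 1 and at 7.57 CPM in culture 2, while HOXB3 was at 0.658 and 0.652 CPM on D30 and at 7.91 and 7.97 CPM on D70. The imprinted neighbours H19 and IGF2 also rested on culture 2, H19 at 23.0 and 21.5 CPM on D30, 32.5 CPM in culture 1 and 2862 CPM in culture 2 (edgeR adjusted p = 0.158), and IGF2 at 123, 178, 188 and 4258 CPM (adjusted p = 0.241 by edgeR). The second TMG library of D70 had 8445 CPM of H19 and 9312 CPM of IGF2. Of 9 neural crest and peripheral neuron genes tested, with a median log2 fold change of 1.28, 3 were higher in culture 2 alone (8.78% of all genes), 2 were opposed (2.16%), 0 were higher in both cultures (5.69%) and 2, PAX3 and PAX7, were lower in both (3.91%). PAX3 was at 48.4 and 79.6 CPM and then at 5.85 and 9.90 CPM and PAX7 at 6.95 and 11.1 CPM and then at 0.129 and 1.29 CPM (adjusted p = 0.134 and 0.0666 by edgeR). Of the 93 genes called, 2 have no symbol, and both were at 0 CPM in the D70 cultures, ENSG00000183086 from 2.91 and 1.3 CPM and ENSG00000272846 from 1.32 and 0.953 CPM on D30.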
